A study of Mus musculus with 6 samples.

Results

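The double-negative 1 (DN1) gate is the earliest stage of thymocyte sorting, and the transcriptome of DN1 cells in the 3 libraries labelled WT is described here from RNA-seq. Members were the genes with a symbol whose FPKM was at least 1 in each of those 3 libraries. FPKM counts the sequenced fragments of a gene relative to transcript length and to the mapped fragments of its own library, so levels can be set side by side between genes. These were 9375 genes of the 23518 with a symbol, or 39.9%. The members were chosen by the same FPKM values that are described, so these are given with no test. The series holds 6 libraries, 3 labelled WT and 3 labelled Tle134-deficient, from mice of 5 to 8 weeks of age. Cells of either genotype were sorted as lineage-negative, TCRb-negative, CD8a-negative, CD25-negative and CD44-positive. The sources used here do not give the lineage antibodies, the Cre or promoter used for the deletion, or the mouse strain. The labels do not say whether the 3 libraries came from separate animals, so their spread may be partly technical.

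T-cell progenitors enter the thymus from the blood and pass through DN1 before they commit to the T lineage. In the DN1 gate, early thymic progenitors, which carry the stem cell factor receptor Kit, lie beside other CD44-positive cells, among them innate lymphoid cells, gamma-delta T cells, B cells and myeloid cells. Notch1 signalling starts the T-cell program there, and Tcf7, Gata3 and later Bcl11b carry it forward. Groucho/Tle corepressors have no DNA-binding domain and are recruited by factors such as Tcf7, Lef1 and the Runx proteins.

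The Tle genes themselves went against the labels. Tle1 had 1.37, 1.19 and 3.61 FPKM in the libraries labelled WT (replicates 1, 2 and 3) and 11.5, 11.3 and 11.1 FPKM in those labelled Tle134-deficient. Tle3 had 26.1, 35.9 and 23.4 FPKM against 82.6, 77.5 and 58.6 FPKM. Tle4 had 17.9, 18.8 and 14.5 FPKM against 27.8, 35.2 and 17.8 FPKM. Tle1 and Tle3 were lower in every library labelled WT than in any labelled Tle134-deficient, and Tle4 overlapped between the groups. The sources used here do not say which exons were deleted, and FPKM over a whole gene does not separate reads from a deleted part from the rest. Whether the labels of the groups were exchanged cannot be told from these values. If they were, the libraries described here would be the Tle134-deficient ones, so they are called by their labels throughout.

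The 3 libraries differed in how their FPKM were spread over genes, and in approximate depth as read from the interval widths. The deposited intervals, read as 2 SD above and below a fragment count, give about 1371204, 3170008 and 3139366 fragments over genes with a symbol in replicates 1, 2 and 3. By this reading the median member held 69.9, 183 and 167 fragments, so replicate 1 had the widest counting error. Fewer than 10 fragments lay behind 351, 99 and 85 members. The intervals may hold more than counting error: the abundant gene Malat1 gave about 15232, 2306 and 2727 fragments at 394, 1166 and 643 FPKM. Summed FPKM came to 1073141, 268034 and 2582386, and the 10 highest genes held 80.5%, 26.7% and 85.4% of it. The median member stood at 8.2, 9.08 and 11.8 FPKM. Replicate 3 was thus shifted upwards as a whole. To set this aside, log2 levels were also centred on the median offset of each library, which was -0.24, -0.12 and 0.33 on the log2 scale.

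Detection was graded between the libraries. Of the 23518 genes, 9842 stayed under 1 FPKM in every library, 2729 reached it in 1 library, 1572 in 2 and 9375 in all 3. Singly, the libraries had 11968, 11091 and 10939 genes at 1 FPKM or more. Chchd4 (1, 3.28 and 7.57 FPKM) and S1pr2 (3.55, 1 and 3.93 FPKM) lay just inside the threshold. Ndrg2 (4.29, 0.999 and 2.27 FPKM) and Mpi (0.999, 2.82 and 2.72 FPKM) lay just outside it. By annotation 9229 members (98.4%) were protein-coding and 98 (1.05%) were long noncoding RNAs.

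Most members were of modest level. By the geometric mean over the 3 libraries, 2416 members (25.8%) had 1 to 5 FPKM, 4903 (52.3%) had 5 to 20, 1801 (19.2%) had 20 to 100, 228 (2.43%) had 100 to 1000 and 27 (0.288%) had 1000 or more. The median was 9.35 FPKM. Factors and receptors had medians above this, as given below, and none of the listed sorting antigens, transcription factors, receptors or cell type markers reached the top 100.

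**Figure D1:**
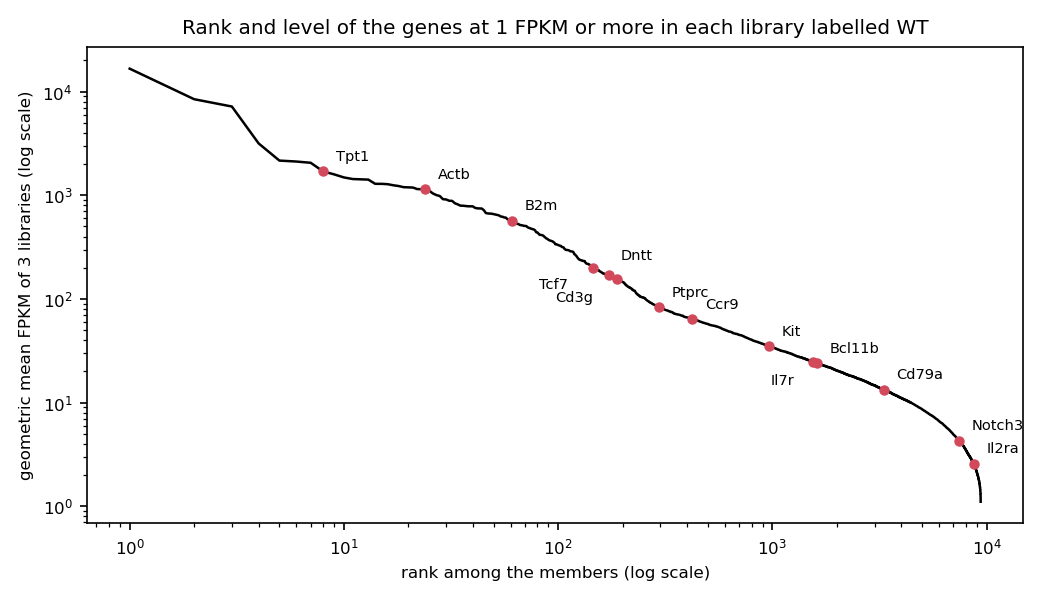
Geometric mean FPKM over the 3 libraries labelled WT (vertical, log scale) against rank among the 9375 members (horizontal, log scale), with some genes of several roles marked. Tcf7, Dntt and Cd3g lie between ranks 145 and 189, while Il2ra lies at rank 8695.

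The top of the order was the translation machinery. Of the 100 highest members, 68 were ribosomal protein genes, 7 were histone genes, 6 were small RNA genes and 19 were others. Among all 9375 members 81 were ribosomal protein genes, and their median FPKM was 437, 418 and 1225 in replicates 1, 2 and 3. After centring, 78 of these 81 genes were highest in replicate 3, where 35.5% of all members were highest, and their median centred log2 level was -0.21, -0.44 and 0.67. Rpl23, a subunit of the large ribosomal particle, was an exception, with 281, 2666 and 781 FPKM. The 50 histone genes had medians of 109, 88.3 and 221 FPKM, and 39 of them were highest in replicate 3 after centring. Most ribosomal protein and histone genes thus stood higher in replicate 3 than its overall shift accounts for.

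Outside those families the highest gene was Rn45s, the precursor of ribosomal RNA, with 3485, 4573 and 1981 FPKM (rank 4) and replicate 3 lowest. The joined Snhg4 and Snora74a, with 620, 571 and 220 FPKM, were also lowest in replicate 3. Several widely expressed genes followed in another order. Tpt1, a translationally controlled growth protein, had 1322, 1219 and 3040 FPKM (rank 8). Eef1a1, the elongation factor that brings transfer RNA to the ribosome, had 1239, 1089 and 2987 FPKM (rank 9). Actb, cytoplasmic beta-actin, had 1069, 756 and 1835 FPKM (rank 24), read over chromosome 5 from 143664796 to 143668433 of mm9. Tpt1, Eef1a1 and Actb had the order of most ribosomal protein genes, with replicate 3 highest and replicate 2 lowest. B2m, the light chain of MHC class I, had 409, 443 and 1007 FPKM (rank 61). Hspa8, a cytosolic chaperone, had 442, 393 and 1161 FPKM, and the chaperone Hsp90ab1 had 382, 433 and 825 FPKM. Ppia, a prolyl isomerase, had 474, 412 and 1525 FPKM, while Ptma, a small nuclear acidic protein, had 501, 465 and 1194 FPKM. The nuclear long noncoding RNA Malat1 departed from this order, with 394, 1166 and 643 FPKM and replicate 2 highest.

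The ribosomal protein genes also differed from other members in the letters around their start sites. Vertebrate ribosomal protein transcripts commonly begin within a run of pyrimidines, so the bases 15 before to 15 after each RefSeq start (GRCm38.p6, the strand of the gene) were searched for CTTTC on the given strand only. This motif, like the others below, was picked after levels had been seen. CTTTC was in the 30 bases of 18 of 71 promoters of ribosomal protein members (25.4%), of 3.61% of promoters of all members and of 4.05% of all 32851 promoters in the table. In the following windows the capitals mark CTTTC, and the first 5 names are the highest ribosomal protein genes that hold it. Rps27 and Rps27rt are joined to 1 gene in the level data.
Rplp2, chr7:141447636-141447665, plus strand: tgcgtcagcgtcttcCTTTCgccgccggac
Rps26, chr10:128626492-128626521, minus strand: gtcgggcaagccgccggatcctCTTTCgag
Rps27, chr3:90213634-90213663, minus strand: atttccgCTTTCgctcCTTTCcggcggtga
Rps27rt, chr9:114982725-114982754, minus strand: agaacttatcccttgCTTTCcggcggtgac
Rpl13a, chr7:45128731-45128760, minus strand: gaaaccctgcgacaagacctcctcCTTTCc
Rpl26, chr11:68901551-68901580, plus strand, without it: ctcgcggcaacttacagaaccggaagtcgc
Rps23, chr13:90923107-90923136, plus strand, without it: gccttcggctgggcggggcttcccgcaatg
Rpl26 and Rps23 rank 5 and 7 by level, so genes without these letters stood as high as genes with them. The letters are a description of the window and not a mapped site.

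Over the full window, 250 bases before to 50 after the start, promoters of members were richer in CpG than the rest. An entry was found for 7271 of the 9375 members. The median ratio of observed to expected CpG was 0.77 for promoters of members, 0.32 for genes with a symbol that were not members and 0.38 for all promoters. It was 0.88 for ribosomal protein members and 0.71 for listed transcription factors, but 0.38 for listed surface receptors and 0.33 for the members of the list for later double-negative T-lineage cells. TATAAA on either strand was in 6.64% of promoters of members, against 13.6% of all promoters. ACTTCCGG on either strand was in 8.73% against 3.89%. The receptor and T-lineage promoters were thus closer to the average promoter than to that of a member, in CpG.

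Agreement between the 3 libraries was similar for each pair by correlation across members, but not by each measure. Across members, which are not independent replicates, Pearson's r of log2(FPKM + 1) was 0.794 for replicates 1 and 2, 0.789 for 1 and 3 and 0.794 for 2 and 3. Spearman's rho was 0.744, 0.751 and 0.752. Over all genes with a symbol, r was 0.862, 0.865 and 0.900, highest for replicates 2 and 3. Each pair shared 85 or 86 of its 100 highest genes, and 82 were in the top 100 of all 3. Levels of a pair lay within 2-fold of each other for 72.8%, 61.1% and 62.6% of members, and for 73.1%, 70.5% and 67.5% after centring. Over all 3 libraries 3747 members (40%) kept within 2-fold and 195 were more than 10-fold apart.

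**Figure D2:**
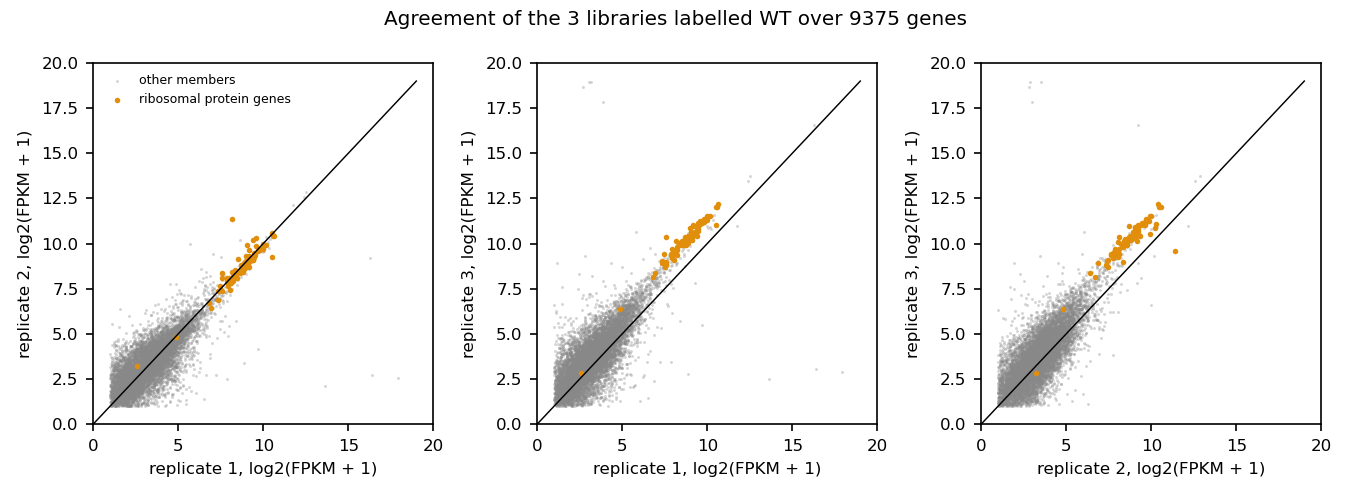
Log2(FPKM + 1) of each member in 1 library labelled WT against another, for the 3 pairs, with ribosomal protein genes in orange and a line of equal values. The cloud follows the line with r between 0.789 and 0.794, and most ribosomal protein genes lie on the replicate 3 side of it in the pairs with that library.

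Differences of single genes were often wider than the deposited intervals. The intervals of replicates 1 and 2 did not overlap for 47.5% of 9178 members with intervals, those of 1 and 3 for 59.4% and those of 2 and 3 for 65%. Only 1610 of 9165 members (17.6%) had 3 intervals that shared a value. The intervals were compared without centring, so the upward shift of replicate 3 as a whole enters these shares. The median coefficient of variation (CV, the SD as a percentage of the mean) was 41.6%, and 36.9% after centring. It was 38% for the listed transcription factors and 40% for the listed receptors, but 55.8% for the listed cell type markers. Cell type markers therefore varied more between the libraries than the typical member did.

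Among members with a geometric mean of at least 50 FPKM, the 5 of lowest CV were of mixed roles. Tln1, the talin that links integrins to actin, had 54.6, 52.6 and 52.1 FPKM (CV 2.43%). Sept9, a septin of the cytoskeleton, had 75.4, 72.2 and 76.5 FPKM (CV 2.99%). Ncor1, a nuclear receptor corepressor, had 48.4, 52.6 and 49.4 FPKM (CV 4.46%). The joined units H13/Mcts2 (62.3, 67.1 and 62.4 FPKM, CV 4.26%) and Hspbp1/Ppp6r1/Tmem86b (64.3, 63.5 and 70.9 FPKM, CV 6.14%) were the others. The 3 libraries thus gave these genes nearly equal values without centring.

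At the other extreme were values far higher in 1 library than in the others, many of them from few fragments. Pde2a, a cyclic nucleotide phosphodiesterase, had 251267 FPKM in replicate 1 from about 9.32 fragments, and 4.86 and 6.25 FPKM in the others. Man2b2, a lysosomal mannosidase, had 8.02, 6.34 and 510211 FPKM, the last from about 30.7 fragments. Zbtb20, a zinc finger repressor, had 7.29, 10.5 and 500558 FPKM, the last from about 30.3 fragments. Zfp395 and Firre in replicate 3, and Dgcr14 and Gsap in replicate 1, had values of the same kind. They enter the ranks by geometric mean, so the ranks of Zbtb20 (97), Man2b2 (111) and Pde2a (146) say little about a usual level. The highest rank, that of Rpph1, the RNA of ribonuclease P, came from 79254, 594 and 97664 FPKM, so replicate 2 stood apart there. The interval widths give about 2244, 978 and 84111 fragments, which differ far more between replicates 1 and 3 than the FPKM do. Fragments approximated for such abundant genes are thus rough. The widest departures of replicate 2 were smaller in FPKM and mixed in depth. Commd2 had 3.23, 62.6 and 2.2 FPKM, Zfp874b had 1.15, 45.5 and 2.7 FPKM and Chchd10 had 2.82, 31.5 and 2.2 FPKM, and their replicate 2 values rested on about 10.7, 19.3 and 13.1 fragments. Proser3 had 1.37, 22.8 and 1.2 FPKM, with about 97.5 fragments in replicate 2. Rasgef1b, a Ras exchange factor, had 1.86, 40.1 and 1.42 FPKM, with about 981 fragments behind the middle value.

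Of the sorting antigens, Cd44, Il2ra and Cd8a matched the gate by level. Cd44, the adhesion receptor used for positive selection, had 27.5, 53.4 and 32.6 FPKM (37.8 ± 13.7, SD, n = 3; rank 918). Il2ra, which encodes CD25, had 2.83, 3.59 and 1.69 FPKM (2.71 ± 0.957, SD, n = 3; rank 8695). Cd8a had 0.888, 0.274 and 2.48 FPKM and Cd8b1 had 3.57, 0.69 and 10.1 FPKM. Il2ra and Cd8a, selected against, were thus low in most libraries, and Cd44, selected for, was well above the median member. No gene for TCRb was among the listed antigens. Of 20 sorting and lineage antigens measured, 13 (65%) were members, beside 39.9% of all genes, with a median of 24.8 FPKM. Ptprc, the leukocyte phosphatase CD45, led with 77.2, 58.2 and 129 FPKM. Cd3e (78.8, 36.6 and 88.3 FPKM) and Cd4 (19.5, 4.03 and 13 FPKM) were members too, and whether the sort used either is not given. Antigens of myeloid and NK cells were uneven. Ly6c2, a Ly6 antigen found on monocytes and some lymphocytes, had 2.07, 8.23 and 59.2 FPKM, and Ly6c1 had 0.429, 0 and 8.82 FPKM. Itgam, an integrin of myeloid cells, had 1.18, 2.05 and 0.771 FPKM, and Klrb1c, an NK-cell receptor, had 0, 0.641 and 1.79 FPKM. In such tables an exact 0 may also stand for an estimate that failed.

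Genes of early thymic progenitors were present in each library. Of 19 listed genes, 18 (94.7%) were members, beside 39.9% of all genes. Kit had 31.8, 36.5 and 37.1 FPKM (35.1 ± 2.9, SD, n = 3), among the steadiest of the listed receptors. Cd34, a sialomucin of progenitors, had 35.8, 95.3 and 84.9 FPKM. Ccr9, the chemokine receptor for thymic CCL25, had 79.1, 59.6 and 55.9 FPKM. Flt3, the receptor tyrosine kinase of multipotent progenitors, had 2.88, 18.6 and 14.6 FPKM. Kit did not separate the libraries, while Cd34 and Flt3 were lowest in replicate 1. After centring, 13 of the 18 were highest in replicate 2, where 33.6% of all members were highest, 1 in replicate 1 and 4 in replicate 3. The summed FPKM of the list was 333, 549 and 558.

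Genes listed for the next double-negative stages were higher still by their median, though not each of them, and in another order of libraries. Of 21 listed genes, 19 (90.5%) were members, beside 39.9% of all genes. The median of these 19 was 45.9 FPKM, against 9.35 for all members. Dntt, the template-free polymerase of antigen receptor joining, had 93.3, 207 and 257 FPKM. Cd3g, a signalling chain of the T-cell receptor, had 191, 51 and 381 FPKM. Cd247, the zeta chain, had 104, 39.7 and 106 FPKM, and Cd3e had 78.8, 36.6 and 88.3 FPKM. The CD3 chains were thus lowest in replicate 2 in each case. After centring, 11 of the 19 were highest in replicate 1, where 30.9% of all members were highest. Unlike Dntt, the recombinase genes had low values: Rag1 had 1.27, 1.36 and 4.38 FPKM and Rag2 had 0, 0.12 and 1.2 FPKM. Ptcra, the pre-T-cell receptor alpha chain, had 0, 0.299 and 0.463 FPKM. Notch3 had 3.89, 4.38 and 4.69 FPKM and Dtx1 had 1.85, 2.5 and 1.09 FPKM, and Il2ra, given above, was low as well. Some genes of the list are shared: Gata3 is also on the list for innate lymphoid type 2 cells. Thy1, which fibroblasts also carry, had 97.5, 29.1 and 125 FPKM. In bulk RNA, fewer cells of a type and less RNA per cell cannot be told apart.

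The promoters of these T-lineage genes more often held the Ets-like motif AGGAAGT, but not ACTTCCGG. AGGAAGT on either strand, a version of the core bound by Ets factors that shares the letters ACTTCC with ACTTCCGG above, was in 8 of 25 promoters of the list's members (32%), in 9.43% of promoters of all members and in 9.35% of all promoters. CAGGTG, an E-box, was in 44% of them and in 20.2% of all promoters. ACTTCCGG was in 1 of the 25 (4%), against 8.73% of promoters of all members and 3.89% of all promoters. AGGAAGT was also in 19.7% of promoters of ribosomal protein members, 16.4% for listed receptors and 13.4% for listed transcription factors. The list is short, with 25 promoters from 17 genes, and several of its genes have more than 1 start. The next 60-base stretches come from the upstream part of 4 of the T-lineage promoters, with AGGAAGT in capitals as it reads on the strand of the gene.
Cd247, chr1:165788597-165788656, plus strand: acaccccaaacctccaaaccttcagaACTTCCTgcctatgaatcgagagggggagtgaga
Cd3e, chr9:45009612-45009671, minus strand: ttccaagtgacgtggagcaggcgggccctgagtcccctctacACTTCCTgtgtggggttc
Lck, chr4:129573642-129573701, minus strand: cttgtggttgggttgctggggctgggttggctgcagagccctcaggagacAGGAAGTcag
Cd3d, chr9:44981561-44981620, plus strand: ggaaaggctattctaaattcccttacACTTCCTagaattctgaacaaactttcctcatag
Cd3d, another CD3 chain, had 43.9, 15 and 55.5 FPKM, and Lck is the kinase that phosphorylates those chains. A match is a description of these letters, not a bound site.

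Transcription factors were detected more often than genes at large. Of 165 listed factors and cofactors, 125 (75.8%) were members, beside 39.9% of all genes. These 125 had a median of 14.6 FPKM, and 29 of them were in the top 1000. The T-lineage list was complete, with 22 of 22. Tcf7, a Tcf/Lef factor that acts downstream of Notch1 in early T cells, led all listed factors with 229, 164 and 213 FPKM (202 ± 33.7, SD, n = 3; rank 145). Myb, needed in progenitors and thymocytes, had 93.4, 121 and 131 FPKM (rank 231). Gata3, the zinc finger factor of early T cells, had 61.1, 27.9 and 56.9 FPKM, and Lef1, the relative of Tcf7, had 69.5, 28.6 and 48.4 FPKM. Bcl11b, which marks commitment, had 36.4, 18.4 and 20.8 FPKM. Tcf7 stood above every other listed factor by geometric mean, although Jun, the next, had 177 FPKM in replicate 2 against 164 for Tcf7. Runx1, the core-binding factor, had 13.5, 17.1 and 15.2 FPKM, and Ikzf1, Ikaros, had 45.2, 53.2 and 53.3 FPKM. These 2 factors kept closer together across libraries than Gata3 or Lef1 did.

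**Figure D3:**
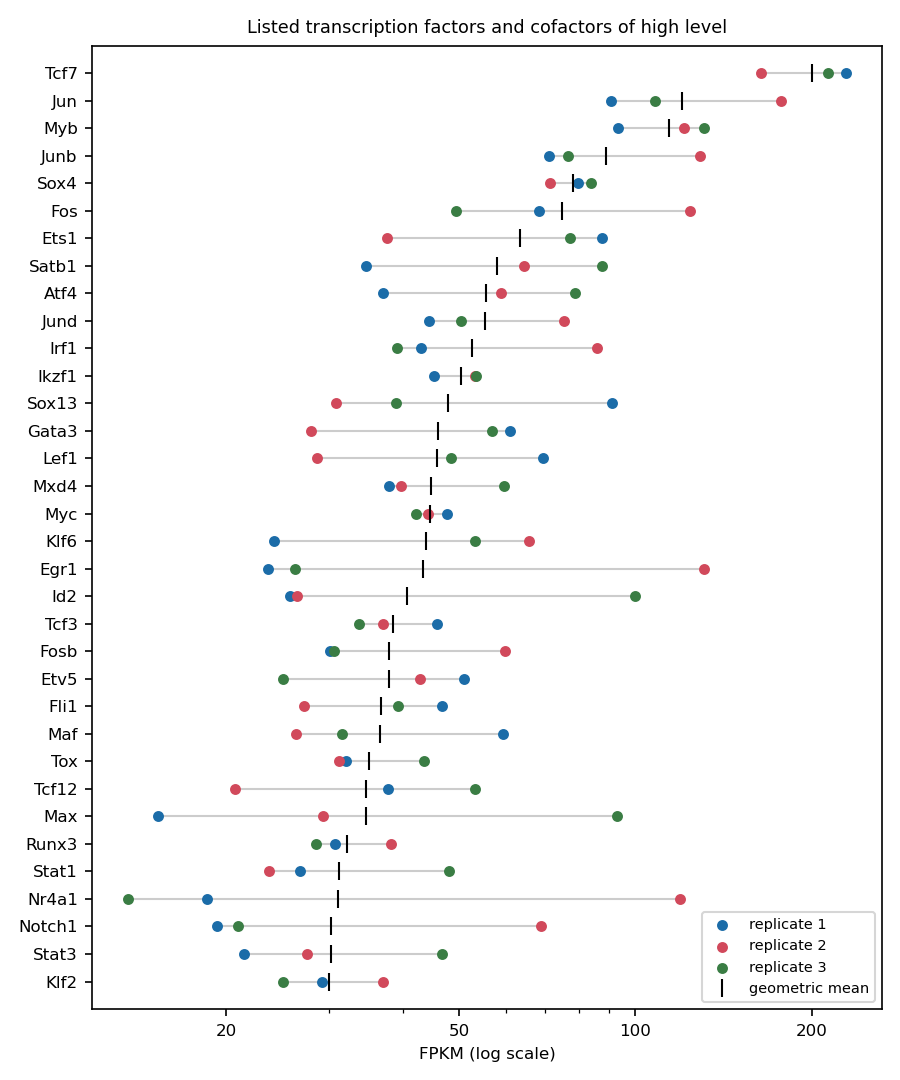
FPKM (log scale) of listed transcription factors and cofactors of high level, with 1 point per library labelled WT and a bar at the geometric mean. The list also holds the receptor Notch1. Tcf7 leads, and Nr4a1 and Egr1 have their replicate 2 point far to the right.

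Progenitor factors were members in 18 of 23 cases (78.3%), beside 39.9% of all genes, at lower level (median 13.2 FPKM). Spi1, which encodes PU.1, had 9.67, 30.3 and 26.1 FPKM. Lyl1, a basic helix-loop-helix factor, had 4.19, 30.0 and 16.5 FPKM, and Hhex, a homeobox factor, had 9.25, 34.0 and 32.0 FPKM. Bcl11a, the relative of Bcl11b, had 5.65, 31.1 and 18 FPKM. All 4 were lowest in replicate 1. After centring, 13 of the 18 were highest in replicate 2, beside 33.6% of all members, and the median centred log2 level was -0.60, 0.60 and -0.04 in replicates 1, 2 and 3. Mef2c, a MADS-box factor, went another way, with 5.89, 9.58 and 40.6 FPKM.

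The list of Klf, Fox, Myc, AP-1 and Egr factors also leaned towards replicate 2. Of its 25 members, 17 were highest in replicate 2 after centring, beside 33.6% of all members. Jun, an AP-1 subunit, had 90.9, 177 and 108 FPKM, and its partner Fos had 68.3, 124 and 49.3 FPKM. Egr1, a zinc finger factor of the same early response, had 23.6, 131 and 26.2 FPKM, and Nr4a1, an orphan nuclear receptor from another list that is induced by antigen receptor signals, had 18.5, 119 and 13.6 FPKM. Notch1, from the T-lineage list, had 19.3, 68.9 and 20.9 FPKM. Replicate 2 was the highest for each of these 5 genes. Egr2, a relative of Egr1, was lowest there, with 2.42, 2.09 and 4.48 FPKM. Myc, a growth factor-responsive activator, did not share this, with 47.6, 44.2 and 42.1 FPKM. The progenitor genes above were mostly highest in the same library, and the part of either group in the other was not tested.

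Other families were uneven, beside the 39.9% of all genes that were members. All 24 Irf, Stat and NF-kB genes were members, led by Irf1 (43.0, 85.8 and 39.2 FPKM), an interferon response factor. Of the 7 E and Id proteins, 5 were members. Tcf3, which encodes E2A, had 45.8, 37.1 and 33.7 FPKM, and Id2, an inhibitor of E proteins, had 25.7, 26.4 and 99.8 FPKM. Id2 was highest in replicate 3, while Tcf3 varied little. Factors of innate lymphoid and effector T cells were members in 14 of 18 cases. Sox4 had 79.8, 71.4 and 84.0 FPKM, and Sox13, known from gamma-delta T cells, had 91.1, 30.8 and 39.0 FPKM. B-lineage factors were at a low level (8 of 10, median 3.63 FPKM), with Pax5 at 1.73, 2.30 and 7.72 FPKM and Ebf1 at 0.683, 2.02 and 0.848 FPKM. Only 2 of 21 Hox units were members: Hoxa9 with 1.45, 6.95 and 4.20 FPKM, and Hoxa7 joined to the noncoding gene Mira, with 2.87, 6.02 and 21.0 FPKM.

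Of 190 listed surface receptors, 131 (68.9%) were members, beside 39.9% of all genes, with a median of 11.7 FPKM. Ly6e, a small lipid-anchored antigen, led with 118, 216 and 213 FPKM (rank 162). Ifngr1, the ligand-binding chain of the interferon gamma receptor, had 198, 113 and 98.1 FPKM (rank 215). Il2rg, the common cytokine receptor chain, had 46.1, 44.6 and 80.0 FPKM, and Il7r, its interleukin-7 partner, had 17.1, 17.7 and 50.8 FPKM. Tgfbr2, a receptor for TGF-beta, had 29.9, 39.8 and 34.1 FPKM. Ifngr1 was thus the highest listed cytokine receptor, and Il7r was carried mainly by replicate 3. Cytokine receptors were members in 32 of 40 cases and chains of the T-cell receptor and its coreceptors in 23 of 28.

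**Figure D4:**
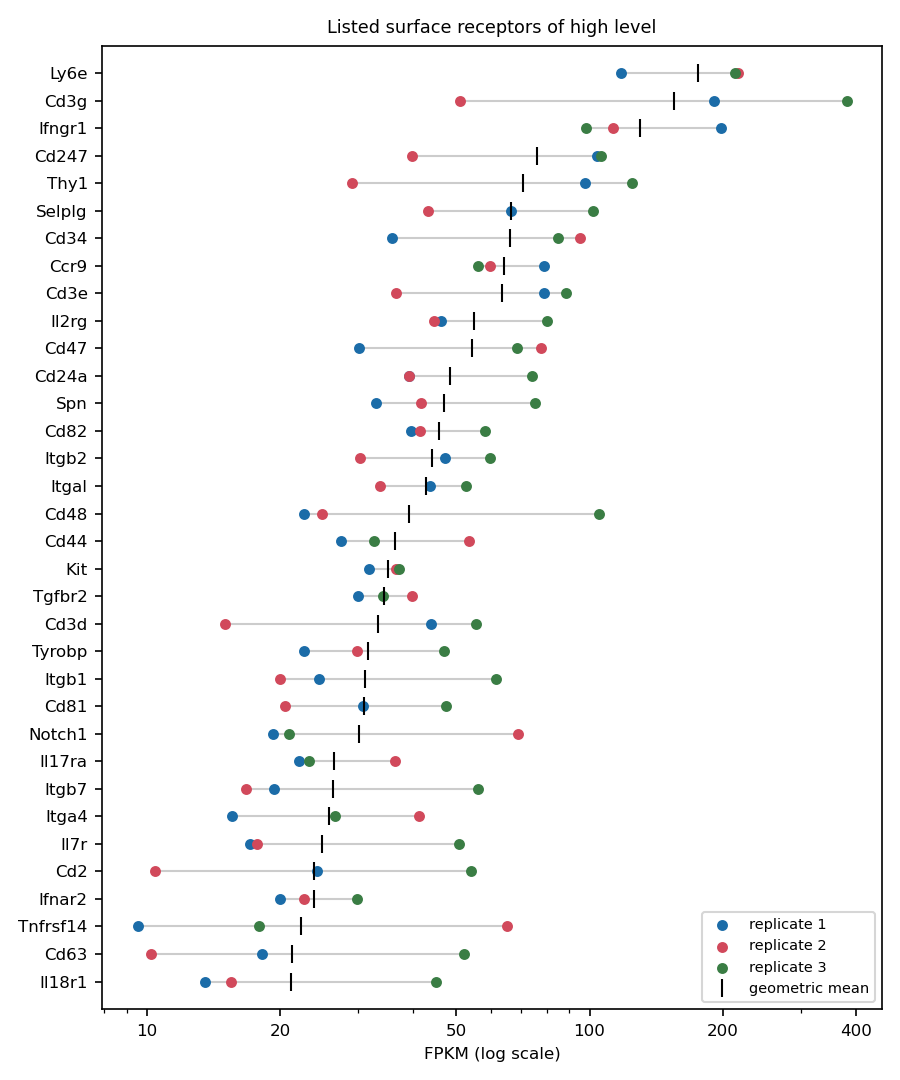
FPKM (log scale) of listed surface receptors of high level, with 1 point per library labelled WT and a bar at the geometric mean. The CD3 chains and Thy1 have replicate 2 lowest, while Kit and Tgfbr2 lie within a narrow range.

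Homing and adhesion receptors showed both steady and uneven members. Adhesion molecules were members in 33 of 36 cases. Selplg, the selectin ligand PSGL-1, had 66.6, 43.1 and 102 FPKM. Chemokine and related homing receptors were members in 14 of 26 cases. Cxcr4, the receptor for CXCL12, had 17.5, 19.8 and 19.8 FPKM (19 ± 1.37, SD, n = 3), and S1pr1, the egress receptor, had 17.5, 8.90 and 8.93 FPKM. Kinase receptors and Notch proteins were members in 11 of 16, TNF receptors in 11 of 16. Tnfrsf14, a coreceptor of that family, had 9.53, 65.2 and 17.9 FPKM. Of the NK, Fc and pattern receptors, only 7 of 28 (25%) were members, below the 39.9% of all genes. They were led by the adaptor Tyrobp, with 22.6, 29.8 and 46.8 FPKM.

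Cell types other than T-cell progenitors were represented by some of their markers and not by others. The marker lists held 269 genes, and 159 (59.1%) were members, beside 39.9% of all genes. At 5 FPKM in all 3 libraries, which 23.1% of all genes passed, 93 listed factors, 84 receptors and 93 markers remained. Mature alpha-beta T-cell genes and gamma-delta T-cell genes were each members in 13 of 15 cases. Cd4, the coreceptor, had 19.5, 4.03 and 13 FPKM, Icos, a costimulatory receptor, had 13.2, 21.6 and 29.9 FPKM, and Trat1, an adaptor of the T-cell receptor, had 18.8, 15.9 and 28.5 FPKM. 5830411N06Rik, a scavenger receptor gene of gamma-delta T cells, had 70.3, 74.2 and 57.4 FPKM, and Blk, a Src-family kinase, had 44.3, 38.0 and 29.9 FPKM, yet Il17a had 0.18, 1.14 and 0.129 FPKM. Genes of innate lymphoid type 3 and tissue-inducer cells were members in 11 of 14, among them Id2, Kit and Tox, which T-cell progenitors share. Of NK genes 7 of 15 were members, with Gzma, a granzyme, at 58.1, 9 and 66.1 FPKM and the defining receptor Ncr1 at 0, 0.153 and 0 FPKM. Innate lymphoid type 2 genes were members in 5 of 14.

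**Figure D5:**
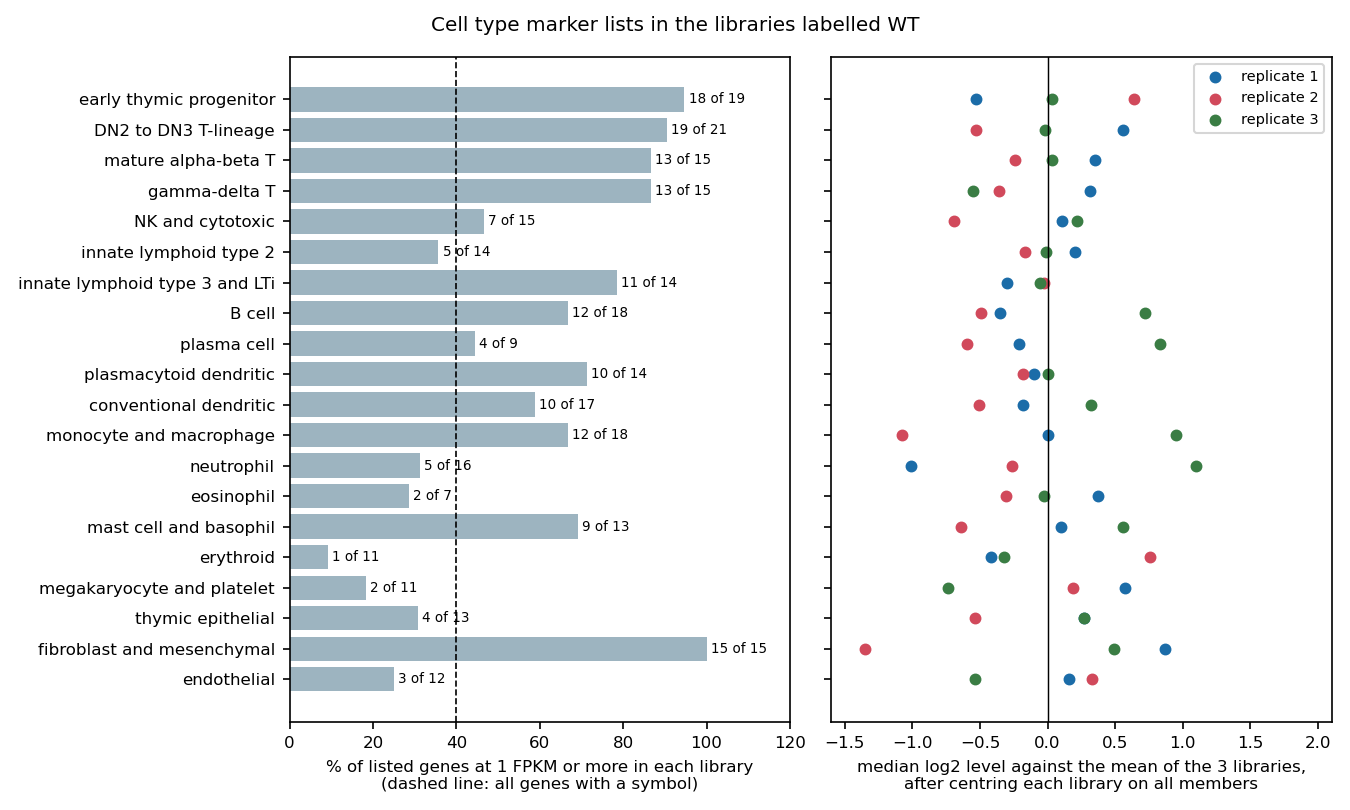
Left, the share of each marker list at 1 FPKM or more in all 3 libraries labelled WT, with the dashed line at the 39.9% of all genes. Right, the median centred log2 level of the list's members in each library; replicates 1 and 3 coincide for thymic epithelial genes, and the fibroblast list spans from -1.35 in replicate 2 to 0.87 in replicate 1.

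Myeloid, B and plasma cell genes were members in part and were mostly highest in replicate 3. Of 18 B-cell genes 12 were members, with a summed FPKM of 71.5, 64.7 and 195 in replicates 1, 2 and 3. Cd79a, a signalling chain of the B-cell receptor, had 8.95, 6.88 and 38.6 FPKM, and 9 of the 12 were highest in replicate 3 after centring, beside 35.5% of all members. Of 9 plasma cell genes 4 (44.4%) were members, close to the 39.9% of all genes. Jchain, the joining chain of secreted antibody, had 35.9, 25.7 and 240 FPKM. From the same list, Prdm1 had 1.67, 0.441 and 0.296 FPKM, and Tnfrsf17 was listed at 0 in every library. Of 18 monocyte and macrophage genes 12 were members, with sums of 116, 77.5 and 341 FPKM. Ctss, a lysosomal cathepsin, had 26.4, 17.0 and 87.9 FPKM, Lyz2, lysozyme, had 13.9, 6.61 and 65.8 FPKM, and the defining marker Cd14 had 2.33, 0 and 0 FPKM. MHC class II genes followed them: the joined unit of Cd74 and Mir5107 had 75.9, 64.8 and 264 FPKM, and the joined H2-Ab1 and H2-Eb1 had 37.6, 36.0 and 163 FPKM. Of the conventional dendritic list 10 of 17 genes (58.8%) were members and of the plasmacytoid list 10 of 14 (71.4%), beside 39.9% of all genes. Of the plasmacytoid list, the members Ccr9, Tcf4, Irf8 and Spib are also on other lists here. Its gene Siglech had 8.38, 0.233 and 0 FPKM, and Cd209d was listed at 0 in every library. Zbtb46, a factor of conventional dendritic cells, had 12.6, 2.69 and 5.81 FPKM, while Xcr1 and Clec9a, markers of their cross-presenting subset, were at 0 in replicates 1 and 3, with 0.0299 and 0.116 FPKM in replicate 2.

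Granule genes gave a mixed picture. Mpo, myeloperoxidase, had 84.0, 232 and 257 FPKM (rank 171), and Elane, neutrophil elastase, had 19.3, 35.5 and 142 FPKM. Ctsg and Prtn3, other proteases of the same granules, had 9.63, 18.5 and 87.3 FPKM and 8.90, 19.8 and 59.0 FPKM. Genes of later neutrophil stages differed in which library held them: S100a8 had 0, 1.12 and 30.8 FPKM and S100a9 had 0, 0 and 27.0 FPKM, but Camp had 0, 5.85 and 0 FPKM and Ltf had 2.26, 0.301 and 0.439 FPKM. Of 16 neutrophil genes 5 (31.2%) were members, beside 39.9% of all genes. Mpo, Elane, Ctsg and Prtn3 were thus present in every library, and the later genes showed no shared order. Of 13 mast cell and basophil genes 9 (69.2%) were members. Cpa3, the mast cell carboxypeptidase, had 54.4, 35 and 110 FPKM, and Mcpt4, a mast cell chymase, had 21.8, 1.40 and 57.0 FPKM. Among the genes of that list that were not members, Fcer1a had 1.91, 0 and 7.18 FPKM and Tpsab1 had 0, 0.364 and 2.14 FPKM. Erythroid genes were members in 1 of 11 cases, with Slc4a1, the red cell anion exchanger, listed at 148064, 0 and 0 FPKM.

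Fibroblast and mesenchymal genes were members in 15 of 15 cases, beside 39.9% of all genes, with summed FPKM of 659, 174 and 835. Dcn, decorin, had 97.4, 27.0 and 212 FPKM, Col3a1, a fibrillar collagen, had 70.0, 14.5 and 87.9 FPKM, and Col1a1 had 56.9, 5.57 and 25.4 FPKM. Mgp, matrix Gla protein, had 54.1, 13.7 and 103 FPKM. Replicate 2 was lowest for each of these, and 10 of the 15 were highest in replicate 1 after centring, beside 30.9% of all members. The median centred log2 level was 0.87, -1.35 and 0.49. Thy1, counted among these 15 and also on the T-lineage list, was lowest in replicate 2 too. So were the CD3 chains, which are not on the fibroblast list, and the part of the fibroblast signal in that order was not tested. Of 12 endothelial genes 3 (25%) were members, with Tie1 and Emcn listed at 0 in every library and Cdh5 at 0, 0.185 and 0 FPKM. Of 13 thymic epithelial genes 4 (30.8%) were members, with Krt5 listed at 0 in every library. Both shares were below the 39.9% of all genes, but the lists are short. The epithelial members were also lowest in replicate 2 by median centred log2 level (0.27, -0.54 and 0.27), while the endothelial members were not (0.16, 0.33 and -0.54). Pecam1, which leukocytes also carry, had 21.7, 21.1 and 17.3 FPKM.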

How the data were processed

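RNA from sorted DN1 thymocytes was sequenced in 6 libraries, and the 3 labelled WT were used, with the others read for the Tle genes. The deposited tables list an FPKM and its interval for each locus, per the file headers, in a Cufflinks-type layout. The submitters' processing notes name featureCounts 2.0.1, TopHat2 2.1.1, Trimmomatic 0.38 and the mm9 build, with no role or order. The sources used here do not give a Cufflinks version, the annotation or the strand use. FPKM is relative to each library's own total.

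Symbols that share a locus in a library labelled WT were joined and their FPKM added, so 24318 symbols gave 23518 genes, 580 of them holding more than 1 gene. Read depth is not among the values used; fragments were approximated from the interval widths. Ranks use the geometric mean, and agreement used log2(FPKM + 1). Python 3.11.15, pandas 2.3.3, numpy 2.4.6 and matplotlib 3.10.9 were used. The scripts were tested on simulated data. Promoters came from RefSeq GRCm38.p6, apart from the mm9 levels, and were matched by symbol.

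Members and gene lists were chosen with earlier results of these data known. Genes were named by rule: the 20 most abundant, the 5 highest of each factor, receptor and antigen list, the 4 highest of each marker list, the 5 most extreme of each library, the 5 of lowest CV, and 2 on each side of the threshold. Ribosomal protein, small RNA and predicted genes were mainly counted. Defining markers and other genes named beyond these were chosen after their values were seen. Alternatives changed the threshold, pseudocount, joining, scaling, rank measure and libraries. Some genes of these lists are counted but not reported here by name.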

Additional observations from a re-analysis of the deposited data

How the results depend on the processing

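No paired analysis was possible because the 3 libraries form 1 group and no result comes from a test. The number of members (9375) was 8028 to 10947 under the planned thresholds and rules, 9887 to 9905 with 1 library left out, and 8866 without genes under 10 fragments, an alternative added after the data were seen. The median pairwise r of 0.794 was 0.781 with a pseudocount of 0.1, 0.865 over all genes, 0.788 with each symbol on its own rows, 0.751 as Spearman's rho and 0.806 without genes under 10 fragments. Leaving out 1 library gave 0.786 to 0.796. At 5 FPKM, 93 factors remained of 125, 84 receptors of 131 and 93 markers of 159, beside 5425 of all 9375 members. Of the 100 highest genes, 92 to 100 were shared under every alternative run. By the approximate fragments, genes near 1 FPKM in replicate 1 rest on the fewest, so levels there are likely the least precise. The cause of these shifts was not tested.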
